A study of Mus musculus with 7 samples.

Results

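The immunoglobulin-superfamily adhesion genes of the L1, NCAM and contactin families were compared between neural crest-derived and other cells of the fetal mouse bowel. They were taken by name, as the genes with 1 array probe set paired with 1 of 10 symbols: the L1 family genes L1cam, Chl1, Nrcam and Nfasc, the NCAM genes Ncam1 and Ncam2, and the contactin genes Cntn1, Cntn3, Cntn4 and Cntn6. All 10 were measured, each by a single probe set, among 19938 genes in all. The samples were 7 microarrays of cells sorted by fluorescence from whole bowel of Wnt1-Cre; R26R-EYFP mice at embryonic day 17.5, 4 of EYFP-positive cells, labelled enteric neural crest-derived cells (ENCDC), and 3 of EYFP-negative cells, labelled non-ENCDC. Both groups carried the same alleles, and the labels name no drug or other treatment. Cre under Wnt1 control acts in the neural crest, and recombination of the R26R-EYFP reporter makes those cells and their descendants fluoresce, so the positive gate holds enteric neurons, glia and their precursors together. The stated purpose was to find genes more abundant in ENCDC that could act late in the development of the enteric nervous system. Nothing in the labels tells whether replicates are different embryos, litters or sorts, so the p-values measure the spread between these samples, which may be technical.

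L1-type proteins span the membrane, bind one another across cells and hold the cortical cytoskeleton through ankyrins. NCAM proteins bind likewise, and NCAM1 can carry long chains of polysialic acid that loosen contacts while cells migrate and axons grow. Contactins lack a transmembrane part and are held by a lipid (GPI) anchor. They signal with partners in the same membrane, such as L1-type proteins and contactin-associated proteins. They also bind receptor tyrosine phosphatases. In the bowel L1CAM is known for its part in the migration of neural crest cells, and NCAM is a long-used marker of enteric neurons and precursors.

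The gate was checked against marker genes. On the log2 scale the mean of 14 enteric neuron markers lay between 8.46 and 9.17 on the YFP-positive arrays and between 4.996 and 5.37 on the YFP-negative arrays, and that of 10 glia and progenitor markers between 8.13 and 8.51 against 5.47 and 5.76. The mean of 10 myeloid markers was 5.41 to 6.53 against 9.50 to 9.73. Markers of the intestinal epithelium did not separate the groups, with a mean of 8.17 to 9.20 on YFP-positive and 8.48 to 8.76 on YFP-negative arrays, and 0 of 14 passed the test described below. YFP-positive arrays 3 and 4 stood apart from arrays 1 and 2 in carrying higher epithelial, fibroblast, smooth muscle and myeloid levels, which is taken up with the members below. The YFP-negative arrays stood apart from one another in the mean of 2 erythroid markers, at 6.46, 9.33 and 11.41 on arrays 1 to 3, against 5.62 to 6.04 on the YFP-positive arrays. YFP-negative array 3 also had the highest neuron mean of its group (5.37) and the lowest fibroblast (8.94) and smooth muscle (9.13) means. In bulk samples of this kind, a lower level from fewer cells of a type cannot be told apart from less RNA per cell.

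Of the 10 genes, 9 were higher in ENCDC and 0 were lower at a Benjamini-Hochberg adjusted p under 0.05 over all genes (limma), and the log2 fold change of the other gene, Cntn4, was also above 0. Of all genes tested, 8.39% were called higher and 9.11% lower. Of the 9, 8 were at least 2-fold higher, where 3.12% of all genes were both called and at least 2-fold higher. The count was 5 at 4-fold (1.01% of all genes) and 3 at 8-fold (0.346%). The YFP-positive and YFP-negative arrays did not overlap for the 9 genes, which held for 13.5% of all genes in that direction and 26.9% in either. The 10 had a median of 1.80 on the log2 fold change scale, against 0.01 over all genes. Each difference below is the mean log2 level of the YFP-positive arrays less that of the YFP-negative arrays, with the fit's standard error (SE). The arrays carry no detection calls, so a low level can be largely background, which understates a fold change. Levels of different genes come from different probes and are not set against one another.

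**Figure D1:**
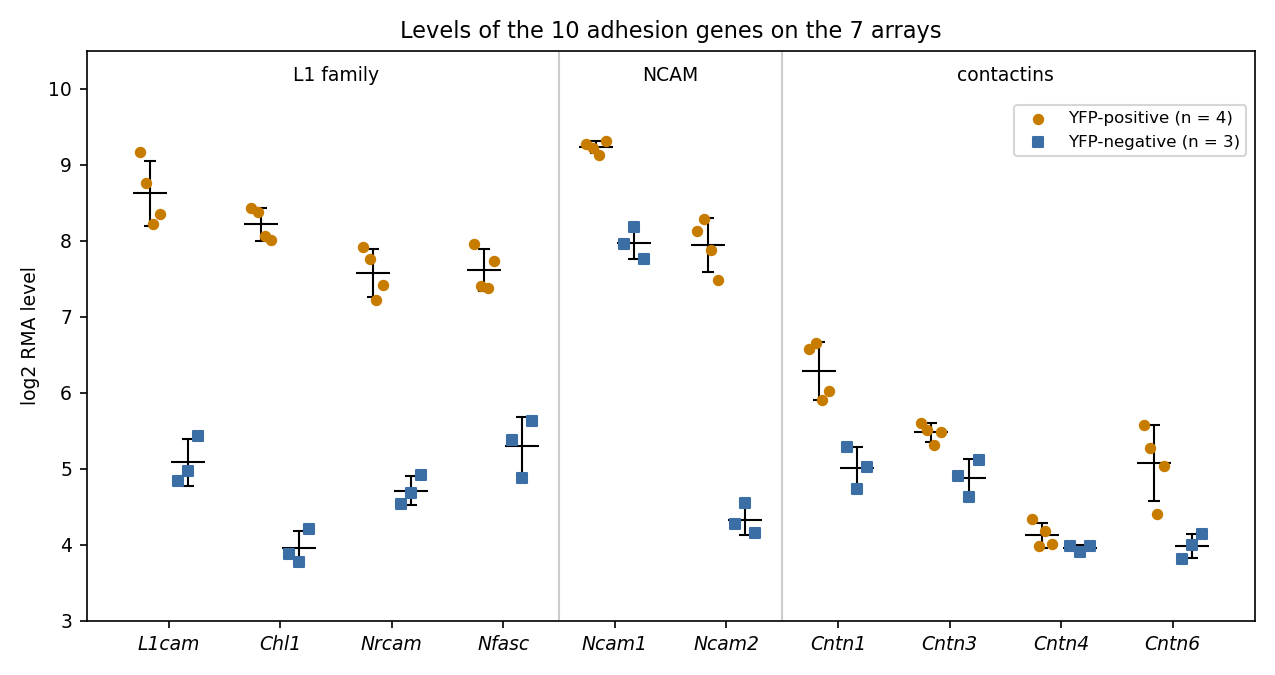
Log2 RMA level (vertical axis) of each of the 10 genes on the 4 YFP-positive arrays (orange circles) and the 3 YFP-negative arrays (blue squares), with the mean and SD of each group as a bar and whiskers. The groups stand apart in all genes but Cntn4, with the widest gap for Chl1 and narrow gaps for Cntn3 and Cntn6, and heights are to be read within a gene only.

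The upstream sequences of the genes are shown first for the 3 with at least 8-fold differences, and for Cntn3, the smallest difference that passed, because their base composition differs. RefSeq (GRCm38.p6) start-site windows were found for 9 of the 10 genes (not Ncam1), 14 windows in all, and the 250 bases before each start were read on the gene's strand. The capitals mark CG dinucleotides, the sites of DNA methylation.
Chl1 (chr6:103510626-103510875, plus strand): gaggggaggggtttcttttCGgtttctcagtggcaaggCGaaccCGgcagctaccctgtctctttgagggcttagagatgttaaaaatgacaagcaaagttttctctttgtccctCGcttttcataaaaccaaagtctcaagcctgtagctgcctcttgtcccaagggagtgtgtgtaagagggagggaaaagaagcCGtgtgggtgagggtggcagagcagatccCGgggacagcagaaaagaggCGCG
L1cam (chrX:73880791-73881040, minus strand): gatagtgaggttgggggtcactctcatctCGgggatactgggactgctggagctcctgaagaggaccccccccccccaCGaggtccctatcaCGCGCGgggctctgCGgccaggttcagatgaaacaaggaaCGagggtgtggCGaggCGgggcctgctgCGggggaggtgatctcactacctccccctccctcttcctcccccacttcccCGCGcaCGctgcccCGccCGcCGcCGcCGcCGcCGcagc
Ncam2 (chr16:81200447-81200696, plus strand): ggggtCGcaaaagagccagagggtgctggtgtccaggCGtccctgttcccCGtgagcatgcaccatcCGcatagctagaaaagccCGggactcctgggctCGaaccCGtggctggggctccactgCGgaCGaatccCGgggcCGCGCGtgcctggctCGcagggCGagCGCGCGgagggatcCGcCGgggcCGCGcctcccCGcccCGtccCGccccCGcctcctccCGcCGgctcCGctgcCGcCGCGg
Cntn3 (chr6:102464668-102464917, minus strand): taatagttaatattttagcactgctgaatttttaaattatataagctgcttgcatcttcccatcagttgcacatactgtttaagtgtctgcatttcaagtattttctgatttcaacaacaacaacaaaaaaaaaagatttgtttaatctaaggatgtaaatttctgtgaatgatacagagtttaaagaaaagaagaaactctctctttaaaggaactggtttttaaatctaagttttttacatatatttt

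The Ncam2 window held 32 CG and the L1cam window 20, with a GC content of 75.2% and 69.6%. Nrcam was similar, with 25 CG and 72.4%. The Chl1 window held 8 CG at 52.4%, and the Cntn3 window 0 at 26.4%. Over 32851 windows of all genes the median was 6 CG, with quartiles of 2 and 16, and a GC content of 52.4%. A second L1cam window, shifted by some bases and overlapping the one shown, held 12 CG, and the windows of Nfasc, Cntn1, Cntn4 and Cntn6 held 1 to 12. The 3 windows of L1cam, Ncam2 and Nrcam shown or named first were therefore above the upper quartile, while Chl1, the gene with the largest difference, was not.

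Short motifs were searched on both strands of these windows. The GC box GGGCGG was in 5 of the 14 windows, of L1cam, Nrcam, Nfasc and Ncam2, and in 32.7% of all windows. CCAAT was in 4 of the 14, of L1cam, Nfasc and Cntn1, and in 33.8% of all. The Sox core ACAAAG was in the Chl1 window (16.5% of all), TATAAA in a Cntn1 window (12.4%), and the E-box CAGCTG in windows of Cntn4 and Cntn6 (13.0%). The TATAAA match lay on the opposite strand, at position -181 from the start. Whether each annotated start is used in these cells, and whether any match has a function, was not tested. The E-box CATATG was in a Cntn4 window (3.5%). The homeodomain core ATTA was in 9 of the 14 windows, those of Nfasc, Cntn1, Cntn3, Cntn4 and Cntn6, and in 54.9% of all. Of the left and right parts of the RE1 element, which binds the repressor REST, TTCAGCACC was in 0 of the 14 windows (0.3% of all) and GGACAGC in that of Chl1 (5.3%). The cAMP response element TGACGTCA (1.5%) and the RBPJ core GTGGGAA (5.4%) were in 0. Bases outside the windows, such as introns, were not searched, so a motif absent here can lie elsewhere in the gene. Matches of different motifs shared no bases. No motif of the 11 was shared by the windows of Chl1, L1cam and Ncam2.

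The L1 family genes had large differences in every case, from 4.99-fold to 19.2-fold. Chl1, the close homolog of L1, is a receptor that guides axons and neuronal migration. Its log2 level was 8.43, 8.38, 8.06 and 8.01 on YFP-positive arrays 1 to 4 and 3.88, 3.77 and 4.21 on YFP-negative arrays 1 to 3. The lowest YFP-positive array stood 3.80 above the highest YFP-negative array, against a range of 0.43 within the YFP-positive group. The difference of 4.26 ± 0.15 (SE) was 19.2-fold (limma adjusted p = 2.12e-05) and ranked 10 among all genes.

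L1cam, the founding member, supports axon bundling and crest cell migration. It stood at 9.16, 8.75, 8.22 and 8.36 on the YFP-positive arrays and at 4.84, 4.98 and 5.43 on the YFP-negative arrays. YFP-positive array 1 was the highest and YFP-negative array 3 the highest of its group, and the groups were 2.79 apart at their nearest. The difference was 3.54 ± 0.25 (SE), or 11.6-fold (limma adjusted p = 1.66e-04).

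Nrcam and Nfasc encode the members that gather at the axon initial segment and at nodes of myelinated axons. Nrcam levels were 7.92, 7.76, 7.22 and 7.42 on the YFP-positive and 4.53, 4.68 and 4.91 on the YFP-negative arrays, a difference of 2.87 ± 0.18 (SE, 7.31-fold, limma adjusted p = 1.14e-04). Nfasc levels were 7.95, 7.40, 7.38 and 7.73 against 5.38, 4.88 and 5.63, a difference of 2.32 ± 0.21 (SE, 4.99-fold, limma adjusted p = 4.96e-04). Neither gene overlapped between the groups, and the spread of Nfasc was larger among YFP-negative arrays (range 0.75) than among YFP-positive ones (0.57).

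The NCAM genes differed in how far they separated the groups. Ncam1 encodes the classical neural cell adhesion molecule, and muscle and mesenchymal cells are also known to make it during development. Its level was 9.27, 9.22, 9.12 and 9.32 on the YFP-positive arrays and 7.95, 8.18 and 7.76 on the YFP-negative arrays. The YFP-positive arrays lay within 0.19 of one another, and the difference was 1.27 ± 0.11 (SE, 2.40-fold, limma adjusted p = 3.27e-04). Ncam2, known from axons of the olfactory system, stood at 8.13, 8.29, 7.87 and 7.48 against 4.27, 4.55 and 4.16. That difference was 3.62 ± 0.20 (SE, 12.3-fold, limma adjusted p = 7.36e-05).

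The log2 ratio of Ncam2 to Ncam1 within an array, in which a change of the whole array cancels, lay between -1.84 and -0.93 on YFP-positive arrays and between -3.68 and -3.61 on YFP-negative arrays. Ncam2 therefore rose by 2.35 more on the log2 scale than Ncam1, without overlap of the arrays. The ratio of Ncam2 to L1cam overlapped between the groups, at -1.04 to -0.34 against -1.27 to -0.42, so that these genes had differences of like size (0.08 apart). Ratios are descriptions of these arrays and were given no p.

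The contactin genes differed by 2.43-fold or less, and the difference of Cntn1 was close to that of Ncam1. Cntn1 encodes contactin 1 (F3), a partner of L1-type proteins and of the tyrosine phosphatase PTPRZ1. Its level was 6.58, 6.65, 5.91 and 6.02 on the YFP-positive arrays and 5.28, 4.73 and 5.02 on the YFP-negative arrays, with arrays 1 and 2 well above 3 and 4 in the positive group. The difference was 1.28 ± 0.23 (SE, 2.43-fold, limma adjusted p = 0.00845). Cntn6, or NB-3, had levels of 5.58, 5.28, 4.40 and 5.04 against 3.82, 3.995 and 4.14. YFP-positive array 3 was only 0.26 above the highest YFP-negative array, and the difference was 1.09 ± 0.26 (SE, 2.13-fold, limma adjusted p = 0.0294).

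Cntn3, or BIG-1, stood at 5.60, 5.51, 5.31 and 5.48 on the YFP-positive arrays and at 4.90, 4.63 and 5.11 on the YFP-negative arrays. The groups were 0.20 apart at their nearest, and the difference was 0.60 ± 0.12 (SE, 1.51-fold, limma adjusted p = 0.0168). Cntn4, or BIG-2, did not pass, with levels of 4.34, 3.98, 4.18 and 4.01 against 3.98, 3.90 and 3.98. Its value was identical to 4 decimals on 3 of the 7 arrays, YFP-positive array 2 and YFP-negative arrays 1 and 3. The difference was 0.17 ± 0.10 (SE, limma adjusted p = 0.300), with a 95% confidence interval from -0.06 to 0.40. The remaining contactins on the array, Cntn2 (0.11 ± 0.09, limma adjusted p = 0.465) and Cntn5 (0.53 ± 0.18, limma adjusted p = 0.0861), named after their values were seen, did not pass either.

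**Figure D2:**
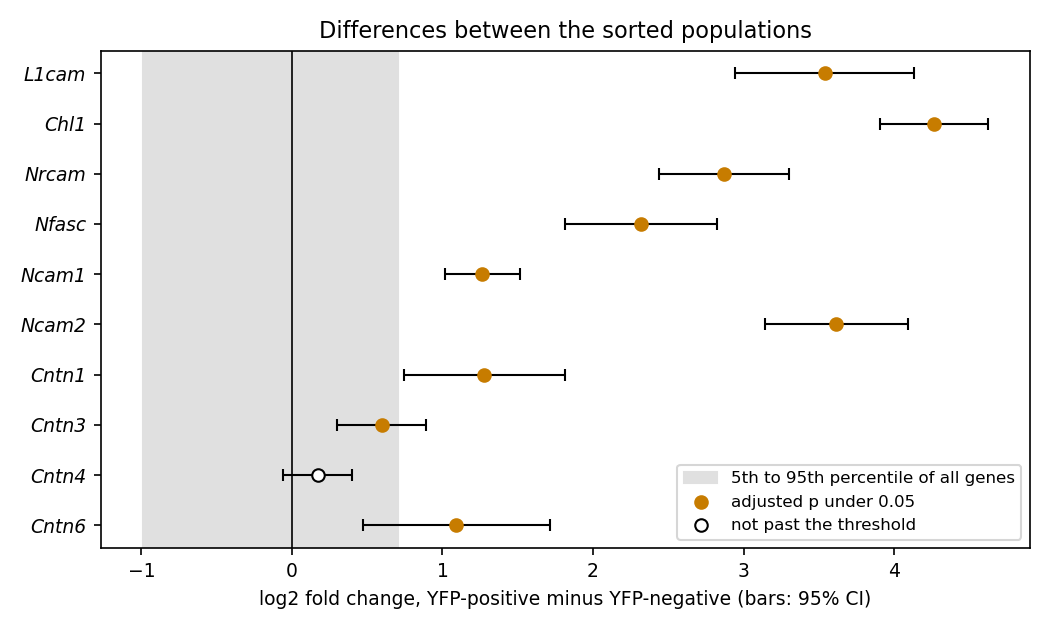
Log2 fold change of each gene (horizontal axis, YFP-positive minus YFP-negative) with its 95% confidence interval from the limma fit, over a grey band that spans the 5th to 95th percentile of all genes (-0.99 to 0.70). Filled points passed an adjusted p of 0.05, and 8 of the 9 lie to the right of the band, with Cntn3 at 0.60 and the open point of Cntn4 at 0.17 inside it.

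The calls of the contactins were less steady than those of the other 6 genes when 1 array was left out. Chl1, L1cam, Nrcam, Nfasc, Ncam1 and Ncam2 passed in each of the 7 such fits. Cntn1 passed in each as well, with an adjusted p of up to 0.0419 (without YFP-negative array 2). Cntn3 was lost when YFP-negative array 1 (limma adjusted p = 0.0557) or YFP-positive array 2 (0.0546) was dropped. Cntn6 was lost without any one of the arrays except YFP-positive array 3, with adjusted p-values from 0.0589 to 0.105. Without YFP-positive array 3, the lowest of its group, the difference of Cntn6 was 1.32 ± 0.16 (SE, limma adjusted p = 0.00474).

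**Figure D3:**
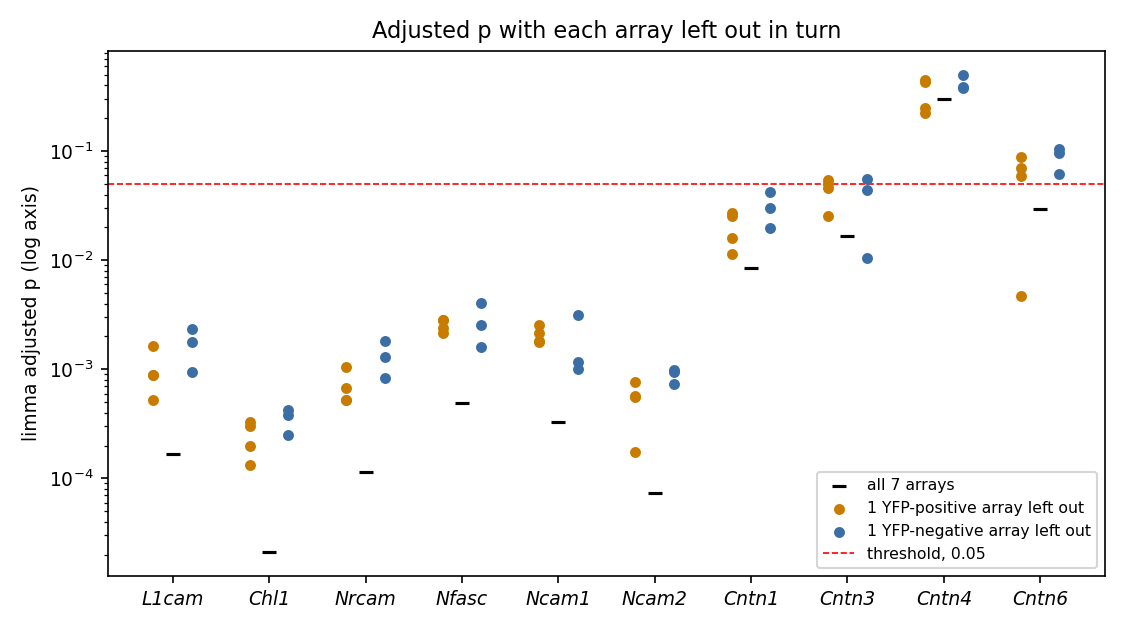
Limma adjusted p (vertical log axis) of each gene with all 7 arrays (black bar) and with 1 YFP-positive (orange) or 1 YFP-negative array (blue) left out in turn. The L1 family and NCAM genes stay below the dashed threshold of 0.05, Cntn1 reaches 0.0419, and Cntn3 and Cntn6 cross it.

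YFP-negative array 3, the array with the highest erythroid and neuron marker means of its group, was also the highest of its group for L1cam, Chl1, Nrcam, Nfasc, Cntn3 and Cntn6. Without it the log2 fold changes were 3.71 for L1cam, 4.39 for Chl1, 2.97 for Nrcam, 2.49 for Nfasc, 0.71 for Cntn3 and 1.17 for Cntn6. They were 1.16 for Ncam1, 3.53 for Ncam2, 1.28 for Cntn1 and 0.18 for Cntn4. Of the 9 calls, that of Cntn6 was lost (limma adjusted p = 0.0618). The part of erythroid or neural cells in the YFP-negative levels was not tested.

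Within the YFP-positive group the members were mostly lower on arrays 3 and 4 than on arrays 1 and 2. The mean of arrays 3 and 4 was below that of 1 and 2 for all 10 genes, as it was for 50.5% of all genes and for 81.3% of the genes called higher. The shift was largest for Cntn6 (-0.71), L1cam (-0.67), Cntn1 (-0.65), Ncam2 (-0.53) and Nrcam (-0.52), and smallest for Ncam1 (-0.02) and Cntn4 (-0.07). Chl1 (-0.37), Cntn3 (-0.16) and Nfasc (-0.12) lay between. The neuron marker mean shifted by -0.58 and the glia and progenitor mean by -0.35. Means of other cell types shifted upward, by 0.86 for epithelium, 0.63 for fibroblasts, 0.99 for smooth muscle, 0.62 for interstitial cells of Cajal and 0.88 for myeloid cells. The part of these cells in the members' levels was not tested.

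Without YFP-positive arrays 3 and 4, an alternative chosen after the data were seen, 8 of the 10 genes were higher. Of all 19938 genes, 1292 were higher in that fit. The log2 fold changes were 4.45 for Chl1, 3.88 for L1cam and for Ncam2, 3.13 for Nrcam, 2.38 for Nfasc, 1.60 for Cntn1, 1.44 for Cntn6 and 1.28 for Ncam1. Cntn3 stood at 0.68 and was lost (limma adjusted p = 0.0641), and Cntn4 stood at 0.20 (0.376). The genes that separate the groups widely thus did so on arrays 1 and 2 alone. All 10 genes had lower means on arrays 3 and 4, so leaving those arrays out could only raise each difference. The rises, for Cntn1 and Cntn6 as for L1cam (3.54 with all arrays), are therefore no separate result.

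**Figure D4:**
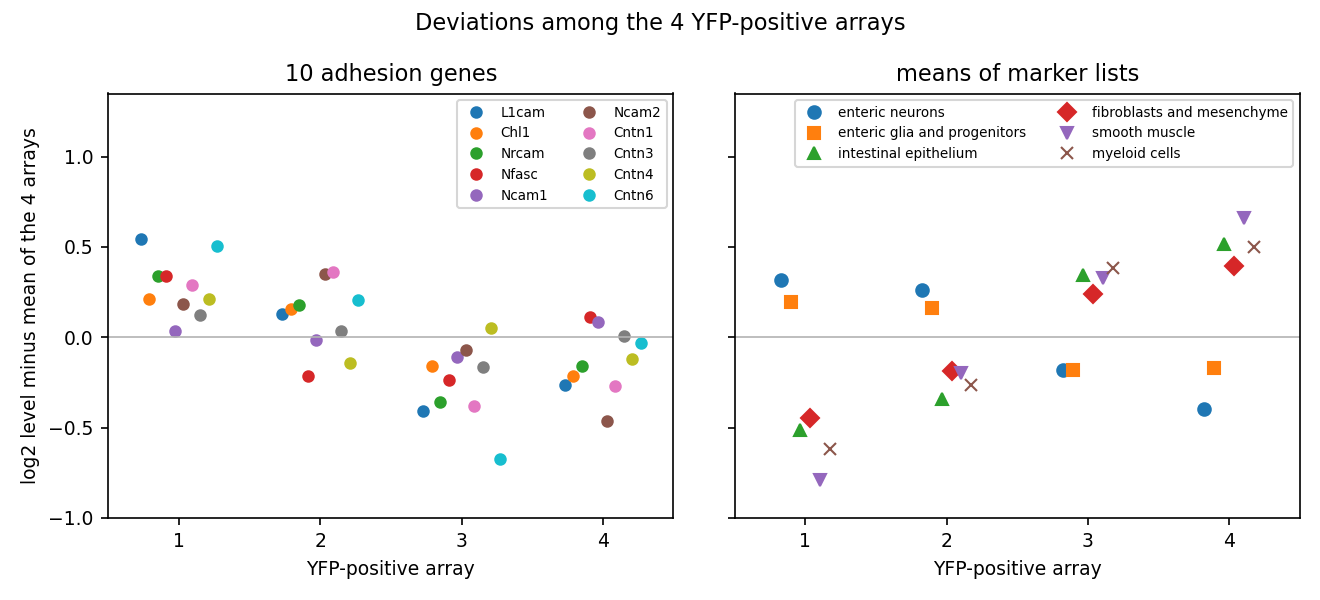
Log2 level minus the mean of the 4 YFP-positive arrays (vertical axis), for each of the 10 genes (left) and for the means of 6 marker lists (right), by array. Most of the 10 genes and the neuron and glia means are above 0 on arrays 1 and 2 and below it on 3 and 4, and the epithelium, fibroblast, smooth muscle and myeloid means run the opposite way.

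Some genes had profiles over the 7 arrays close to those of the members. Likeness was measured as the root-mean-square distance between log2 profiles, each centred on its own mean, over all genes and 7 arrays, and group and array composition enter it. Nearest to L1cam were the neuronal reticulon gene Rtn1 (0.130), Ret, the receptor of GDNF-family ligands (0.148), and the kinesin gene Kif21a (0.174). Nearest to Chl1 were the neuronal ubiquitin hydrolase gene Uchl1 (0.134), Fstl5 (0.157) and the glial cadherin gene Cdh19 (0.167). Nrcam lay near Ttyh1 (0.105), Tagln3 (0.138) and Kif5c (0.145), Nfasc near Soga3, Astn1 and Hmcn1, and Ncam2 near the neurofilament gene Ina (0.137), Tmeff2 and Scg3.

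Among genes of smaller differences, Ncam1 lay nearest to the potassium channel gene Kcnq3 (0.0714), Nbea and Usp22. Cntn1 lay nearest to Diablo (0.0900), the kinase gene Pak3 and Gabrg3, Cntn3 to Pde1c (0.0491), Sv2b and Tle4, and Cntn6 to the matrix gene Tnr (0.133), Klhl1 and Dgki. Cntn4, near flat, lay nearest to Bpifb2 (0.0203), Snx31 and Glrp1. Distances are smaller for flat profiles and are not to be compared between members.

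Genes whose products meet the members at the cell surface went both ways. Over all genes 8.39% were higher and 9.11% lower with all 7 arrays. Counts of 1 or 2 genes in the lists below are near those shares. Of 30 such genes measured, 13 were higher and 5 lower in ENCDC, at a median of 0.30 on the log2 fold change scale. The largest was Ptprz1, the receptor tyrosine phosphatase that binds contactin 1, at 9.52, 9.28, 9.05 and 9.20 on the YFP-positive and 4.37, 4.26 and 4.51 on the YFP-negative arrays (4.88 ± 0.12 SE, 29.5-fold, limma adjusted p = 1.48e-05). Ptprg, which binds contactins 3 to 6, rose by 0.65 ± 0.10. Gfra1, a co-receptor for GDNF that can also act with NCAM, rose by 2.32 ± 0.10, the plexin gene Plxna4 by 2.23 ± 0.15 and Aplp1, of the amyloid precursor family, by 1.37 ± 0.20.

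Among contactin-associated proteins, Cntnap2, a partner of Cntn2 at juxtaparanodes, rose by 0.63 ± 0.10 (SE, limma adjusted p = 0.00614). Cntnap1, the paranodal partner of contactin 1, was at 4.49 on 6 of the 7 arrays and 4.64 on YFP-positive array 2 (limma adjusted p = 0.734). Itga5, the fibronectin receptor chain (-1.31 ± 0.30), and Egfr (-1.14 ± 0.20) fell. Nrp1, a semaphorin receptor that pairs with L1CAM, stood at -0.66 ± 0.18 just inside the threshold (limma adjusted p = 0.0496), and that call was lost without any 1 of the 7 arrays. The call of Itga5 needed each of YFP-negative arrays 1 and 2 and YFP-positive arrays 2 and 3. Fgfr1, through which NCAM and L1-type proteins can signal, was at -0.03 ± 0.05 (limma adjusted p = 0.748). Leaving out any of the same 4 arrays reduced the 5 lower genes to 2.

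Of 18 soluble and matrix ligands 5 were higher and 2 lower, with a median of -0.04. Neurocan, a proteoglycan that binds L1CAM and NCAM (Ncan, 1.54 ± 0.14), Sema3c (1.37 ± 0.16) and agrin (Agrn, 1.18 ± 0.14) rose, and versican (Vcan, -1.17 ± 0.22) and Sema3a (-0.96 ± 0.25) fell. Vcan was lost without YFP-negative array 2 (limma adjusted p = 0.0527), and Sema3a on removal of any array but YFP-negative array 3 or YFP-positive array 4, with adjusted p-values up to 0.127. The lower ligands numbered 0 without YFP-negative array 2 and 4 when YFP-negative array 3 was dropped. They numbered 1 when YFP-negative array 1 or one of YFP-positive arrays 1 to 3 was dropped. The growth factor genes Ptn (-0.32 ± 0.20, limma adjusted p = 0.359) and Mdk (-0.65 ± 0.26, limma adjusted p = 0.136) did not pass, and Mdk passed as lower without YFP-negative array 3 (limma adjusted p = 0.0267).

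Of 25 genes of the cytoskeletal side 12 were higher and 2 lower, with a median of 0.35. Ank2, an ankyrin of axons, was at 9.01, 8.45, 8.53 and 8.64 on the YFP-positive and 6.73, 6.82 and 6.75 on the YFP-negative arrays (1.89 ± 0.13 SE, 3.71-fold, limma adjusted p = 1.60e-04). Ank3, the ankyrin of the axon initial segment, rose by 0.84 ± 0.10. The growth cone gene Gap43, a substrate of NCAM signalling, rose by 3.98 ± 0.25 (15.8-fold), the collapsin response genes Crmp1 and Dpysl3 by 3.33 ± 0.14 and 3.24 ± 0.12, and doublecortin (Dcx), which binds the neurofascin tail, by 2.85 ± 0.27. Moesin (Msn), a linker of membrane to actin, fell by 0.68 ± 0.12. The adaptor gene Sdcbp stood at -0.25 ± 0.06, a call that was lost without any 1 array other than YFP-positive array 2, and in those 6 fits the lower genes were 1.

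Of 15 signalling genes 4 were higher and 1 lower, with a median of 0.23. Pak3 (1.23 ± 0.24), the Src-family kinase gene Fyn, which acts below NCAM and contactin 1 (1.11 ± 0.19), and Prkca (0.78 ± 0.14) rose, and the small GTPase gene Rap1a fell (-0.40 ± 0.08). Pak3 was lost without YFP-negative array 2 (limma adjusted p = 0.0604), where the higher genes were 2, and Rap1a when YFP-negative array 1 (0.0589) or 2 (0.0568) was dropped, where the lower genes were 0.

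The enzymes that add polysialic acid split. St8sia2, a polysialyltransferase of the developing nervous system, stood at 7.003, 6.59, 6.77 and 6.68 on the YFP-positive and 5.89, 5.97 and 5.74 on the YFP-negative arrays (0.90 ± 0.11 SE, limma adjusted p = 0.00170). St8sia4, the other polysialyltransferase of NCAM, which immune cells also make, ran the opposite way, at 5.66, 6.07, 5.43 and 5.27 against 7.26, 7.35 and 7.49 (-1.76 ± 0.19 SE, limma adjusted p = 8.88e-04). Myeloid markers were higher in the YFP-negative cells, as given above, and their part in the level of St8sia4 was not tested. The relatives St8sia3 (1.89 ± 0.15) and St8sia5 (1.17 ± 0.13), which act mainly on other substrates, rose. Of the 15 genes of polysialic acid and HNK-1 synthesis, 4 were higher and 1 lower, with a median of 0.08.

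Of 22 genes of proteases that cut adhesion molecules, and of related ADAM proteins, 2 were higher and 7 lower, with a median of -0.19. The higher ones, Adam23 (2.28 ± 0.22) and Adam22 (1.55 ± 0.11), belong to the ADAM family but lack protease activity. The metalloproteinase genes Mmp9 (-2.83 ± 0.22) and Mmp2 (-1.71 ± 0.24), active in myeloid and mesenchymal cells, fell. Bace1, the secretase that cuts CHL1, was at 0.03 ± 0.06 (limma adjusted p = 0.763). Dropping array 2 of either group left 4 of the 7 as the lower count.

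**Figure D5:**
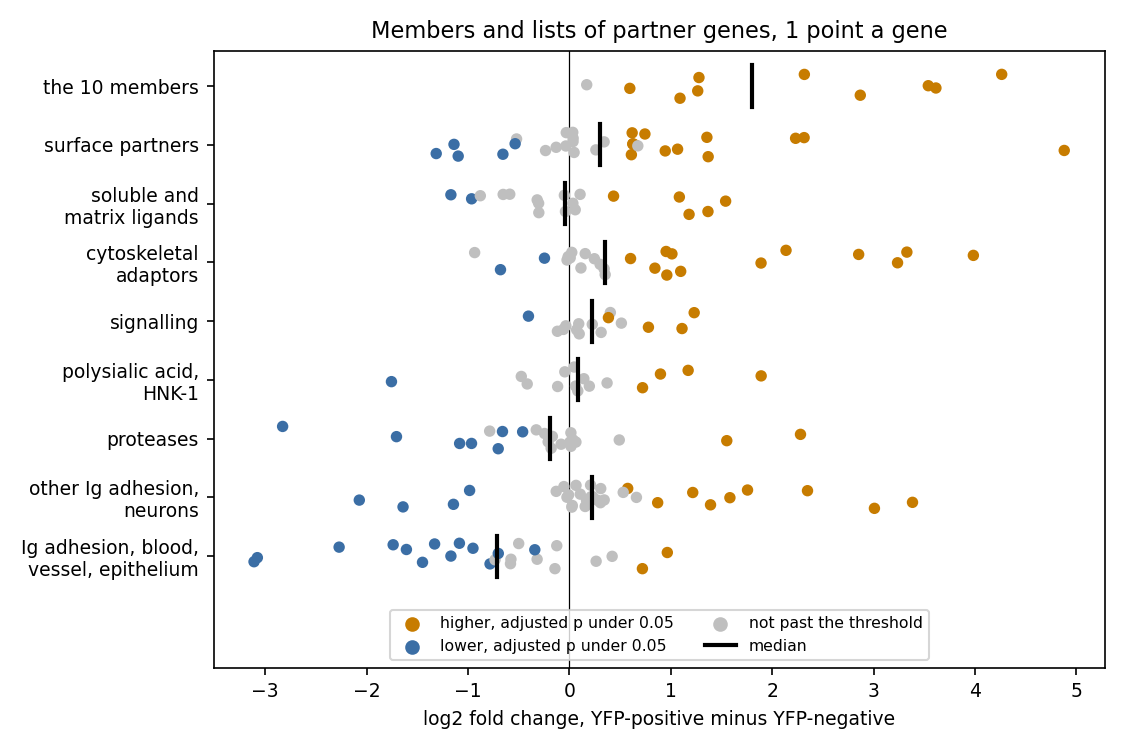
Log2 fold change (horizontal axis, YFP-positive minus YFP-negative) of the 10 genes and of the genes in 8 lists, 1 point a gene, with orange for higher and blue for lower at an adjusted p under 0.05, grey for the rest and a bar at the median. The median is 1.80 for the 10 genes, 0.35 or less for every other list and lowest, at -0.72, for immunoglobulin adhesion genes of blood, vessel and epithelium.

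Other immunoglobulin-type adhesion genes gave a comparison for the 10. Of 32 listed for neurons 9 were higher and 4 lower, with a median of 0.22, where 8.39% of all genes were higher and 9.11% lower. That list includes the contactins Cntn2 and Cntn5, which did not pass. Mdga2, a GPI-anchored regulator of synapse formation (3.38 ± 0.26 SE, 10.4-fold), the synaptic adhesion gene Cadm1 (3.01 ± 0.09) and Lsamp, of the IgLON family (2.35 ± 0.18), rose. Sirpa (-2.07 ± 0.11), which myeloid cells also make, Thy1 (-1.64 ± 0.29), also listed here as a fibroblast marker, and the hedgehog co-receptor gene Boc (-1.14 ± 0.12) fell.

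Of 24 such genes listed for blood cells, vessels and epithelium 13 were lower and 2 higher, with a median of -0.72. Over all genes 9.11% were lower and 8.39% higher, so the 2 higher genes are near that share. The leukocyte genes Cd48 (-3.11 ± 0.29), Cd33 (-3.08 ± 0.22) and Siglech (-2.27 ± 0.19) and the vessel gene Pecam1 (-1.74 ± 0.18) fell. Mcam, which endothelium, smooth muscle and crest-derived cells can make, rose by 0.97 ± 0.18 (SE, limma adjusted p = 0.0115) and the junction gene Jam2 by 0.72 ± 0.16 (limma adjusted p = 0.0210). Jam2 was lost when YFP-negative array 2 or 3, or YFP-positive array 1 or 2, was dropped, and the higher genes were then 1.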

How the data were processed

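RNA of 7 sorted samples was measured on Affymetrix mouse gene arrays after whole-transcriptome amplification, per the labels' protocols. The authors deposited log2 values per probe set, and the submitters' processing notes name RMA and Affymetrix Expression Console without saying whether all arrays were normalized in 1 run. RMA and amplification can compress differences. Among 35556 probe sets the platform annotation pairs 21789 with 1 gene symbol, 1621 with several and 12146 with none, and 0 sample columns were left unmatched. Where a gene had more than 1 probe set (999 genes), the brightest on average stood for it. Array medians lay between 5.87 and 5.92, and the number of arrays limits the precision. The 2 groups were compared with lmFit and eBayes (limma 3.58.1, R 4.3.3), adjusted over 19938 genes. The fit was also tested on simulated data with independent noise for each gene and array. Shifts shared by the genes of an array were not simulated, so that test does not cover them. Summaries used Python 3.11.15, pandas 2.3.3, numpy 2.4.6 and matplotlib 3.10.9. Lists are described by counts and medians. The members, lists and motifs were chosen with earlier results of these data known.

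Named genes were the members, 15 partners fixed whatever their values, and the 3 nearest profiles of each member. Each list added up to 4 called genes of greatest absolute log2 fold change and up to 2 called in the minority direction. Alternatives were eBayes with trend or robust options, array medians centred, quantile normalization again, the dimmest genes by mean level left out, the mean of probe sets, array weights, a test against a 1.5-fold difference (treat), the replicate number as a block, each array left out, and, added after the data were seen, YFP-positive arrays 3 and 4 left out.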

Additional observations from a re-analysis of the deposited data

Results flagged for a closer look

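Among 61 members and named partners, 4 had a YFP-positive array that lay far from the other 3, by the gap to its nearest neighbour over the range of the group, and none of the 4 was among the 10 adhesion genes. Chance gives about 1 in 20 groups. Sirpa stood at 7.85 on YFP-positive array 4 against 7.46 to 7.49 on the others. Cntnap1 stood at 4.64 on YFP-positive array 2 and was identical on the others at 4.49. Nrp1 stood at 7.13 on YFP-positive array 3, below 7.66 to 7.69, and Fgfr1 at 7.46 on YFP-positive array 2, below 7.51 to 7.52.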

How the results depend on the processing

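The 10 genes kept their direction under every alternative run. In 17 alternatives each (16 for Cntn4 and Cntn6, which the filter on dim genes removes), the calls of L1cam (3.36 to 3.88), Chl1 (4.17 to 4.45), Nrcam (2.76 to 3.13), Nfasc (2.11 to 2.49), Ncam1 (1.16 to 1.37) and Ncam2 (3.47 to 3.88) held, while Cntn1 was lost in 1, Cntn3 in 5 and Cntn6 in 8. The count of higher members was 7 to 9 with 1 array left out, 7 with the replicate number as a block, 6 with treat and 8 without YFP-positive arrays 3 and 4. In the same order, 1202 to 1452, 1245, 469 (2.35%) and 1292 of all 19938 genes were higher. Same-numbered arrays of the groups had correlations of deviations of 0.01, -0.09 and 0.04, against -0.16 to 0.27 for other numbers. So few arrays cannot exclude pairing. The labels name no pairs, so the numbers were not taken as pairs in the main fit. With the block 1245 genes were higher and 1264 lower, the signalling genes were 1 higher and 0 lower, and 1 cytoskeletal gene was lower.

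With treat 469 genes were higher and 558 lower. By list, treat gave 4 higher and 0 lower surface partners, 3 and 0 ligands, 7 and 0 cytoskeletal genes, 0 and 0 signalling genes, 2 higher genes of polysialic acid synthesis, 2 lower proteases, 2 lower neuronal immunoglobulin genes, and 0 higher and 7 lower of blood, vessel and epithelium. Lower ligands were 4 with array weights or without the dimmest genes. Lower cytoskeletal genes were 1 with medians centred or quantile normalization again. Without YFP-positive arrays 3 and 4, lower surface partners were 3, lower cytoskeletal genes 0, higher signalling genes 2 and higher genes of blood, vessel and epithelium 1.

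With 1 array left out, 1202 to 1452 genes were higher and 1166 to 1890 lower, lowest without YFP-negative array 2. The ranges were 2 to 4 lower surface partners, 0 to 4 lower ligands, 1 to 2 lower cytoskeletal genes, 2 to 5 higher and 0 to 1 lower signalling genes, 4 to 7 lower proteases, and 1 to 2 higher genes of blood, vessel and epithelium. Bace1, not called, ranged from -0.0014 (without YFP-positive array 1, a turned sign) to 0.0588. The cause of these changes was not tested. The arrays have no detection calls, which limits what can be said of the dim genes Cntn3, Cntn4 and Cntn6.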
